A study of Bos taurus with 48 samples.

Results

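The mammary fat pad is the adipose tissue into which the ducts of the mammary gland grow. Its miRNAs were compared between cattle (Bos taurus) fed milk replacer, a substitute for milk, and cattle on the control diet. The comparison held 16 of the 48 bovine samples of the study, chosen by their labels of tissue and feeding: 6 samples of animals fed milk replacer ad libitum, 6 of animals given a restricted amount of it, and 4 control samples. The labels give no age, breed or composition of the control diet. They do not say that the samples came from separate animals, so p-values measure the spread between these samples. The other tissues of the study were the liver (17 samples) and the mammary parenchyma (15 samples).

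miRNAs are short RNAs that bind matching sites in messenger RNAs and lower their stability or translation. In adipose tissue several of them are known to promote or restrain the conversion of precursor cells into fat cells, and others mark the endothelium, the immune cells or the muscle fibres that fat holds. Many miRNAs lie in introns of protein-coding genes or in clusters that are transcribed together, such as the imprinted DLK1-DIO3 region, which holds one of the largest miRNA clusters of mammals.

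The deposited table gave normalized read counts, which are reads divided by 1 size factor for each library, for 524 mature miRNAs. All values of a library were whole multiples of 1 step, from which the reads were estimated. They came to 2123962 to 8588233 reads in the ad libitum samples, 4213224 to 9522666 in the restricted samples and 2426128 to 5220093 in the control samples. The 12 milk replacer samples had more reads on average than the 4 control samples, by a difference that did not pass (two-sided exact permutation test, p = 0.0681). The step was set so that the lowest value above 0 in each library stood for 6 reads, and other minimums were not tested. On that scale a miRNA listed at 0 can have had up to 5 reads. A count of 6 reads was worth 2.99 to 11.8 normalized reads in the milk replacer libraries and 5.75 to 14.0 in the control libraries, so low miRNAs were seen less well in the control group. With milk replacer 340 ± 21.6 miRNAs were above 0 (SD, n = 12), against 303 ± 21.9 in the control samples (SD, n = 4; two-sided exact permutation test, p = 0.0154). Counting only values of at least 10 normalized reads, the difference in means shrank from 37.3 to 13.3 miRNAs, and with values of at least 50 to 5.67 (p = 0.0440, exact permutation test). Without control replicate 2, the control library with the fewest reads, the difference in miRNAs above 0 had p = 0.0615 (exact permutation test). The part of read depth in this difference was not tested.

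The fat pad label was set against marker miRNAs. Epithelial miRNAs were near 0, since 4 of the 10 epithelial markers in the table were at 0 in all 16 samples and the sum of the 10 ranged from 17.4 to 436 normalized reads. The 11 miRNAs linked to adipocytes summed to 566476 to 1098080. Most of that sum came from miR-143 and miR-148a, with means of 350739 and 298874 normalized reads, and miR-143 is also a smooth muscle and stromal miRNA. The sum was not set against other tissues, so it does not by itself identify adipose tissue. In bulk tissue fewer cells of a type and less RNA per cell cannot be told apart, which holds for every difference below.

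Feeding of milk replacer was accompanied by higher levels of miR-370 and miR-503-5p and by lower levels of miR-25, miR-210 and miR-155. Of 301 miRNAs with a mean of at least 10 normalized reads, 33 passed the test at an adjusted p under 0.05 (11.0% of those tested; limma with Benjamini-Hochberg adjustment), 22 higher (7.31%) and 11 lower (3.65%). The ranges of the 12 milk replacer and the 4 control samples did not overlap for 12 miRNAs (3.99% of those tested, 2.33% higher and 1.66% lower), and all 12 passed. They were miR-370, miR-503-5p, miR-296-3p, miR-543, miR-874, miR-331-3p and miR-671 on the higher side, and miR-25, miR-210, miR-155, miR-98 and let-7d on the lower side. When each library was rescaled to the same sum, the median over all 301 moved on the log2 scale from -0.01 to 0.16 and the split became 34 higher and 5 lower. The values below use the authors' size factors, and their position relative to other miRNAs includes that shift. Without control replicate 19 the test passed for 15 higher and 5 lower miRNAs, without control replicate 21 for 14 and 6, and without the 3 libraries under 3000000 reads (ad libitum replicate 3, control replicates 2 and 21) for 9 and 2.

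**Figure D1:**
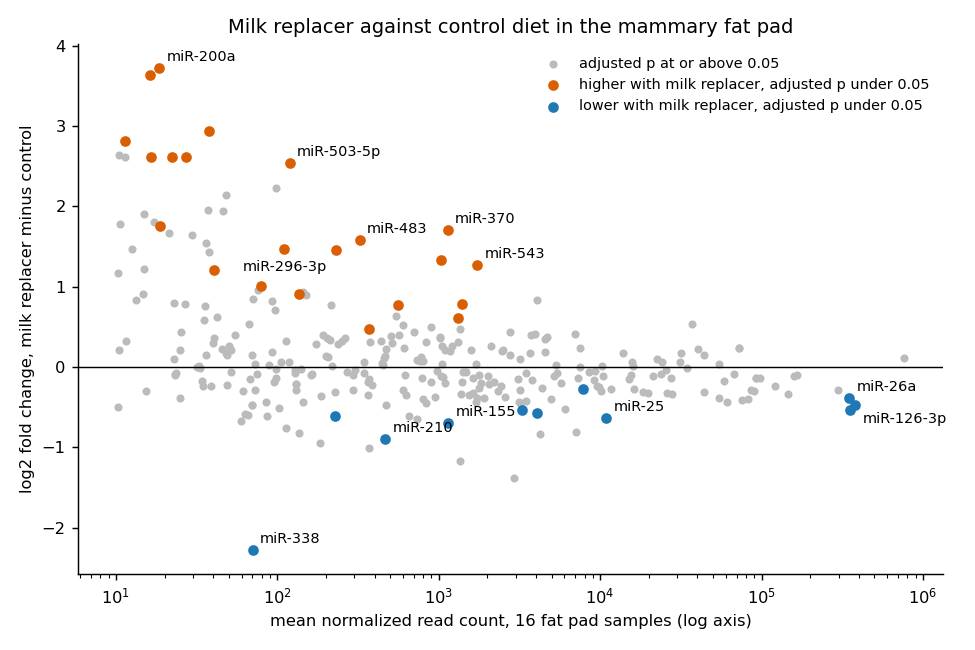
Log2 fold change of milk replacer minus control in the fat pad (vertical axis) against the mean normalized read count over the 16 samples (horizontal log axis), 1 point for each of the 301 miRNAs tested. The 22 miRNAs that passed on the higher side (orange) reach down to means of about 10 to 50 normalized reads, while the 11 on the lower side (blue) include the highly abundant miR-26a and miR-126-3p.

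Of the miRNAs that rose, miR-370 had the lowest p. It belongs to the DLK1-DIO3 cluster, lies within the non-coding RNA gene MEG8 in the RefSeq annotation of the cow, and is known from work on fatty acid oxidation in liver cells. The control samples held 338, 535, 353 and 410 normalized reads of miR-370 (replicates 2, 18, 19 and 21, the order used for all control values). With restricted feeding it ran from 767 to 1589 (median 1152), and with ad libitum feeding from 1083 to 2716 (median 1421). Every milk replacer sample lay above every control sample. The log2 fold change was 1.70 (standard error 0.22, adjusted p = 0.000169, limma), a 3.25-fold difference, and it passed in all 14 other settings and in all 16 fits with 1 library left out.

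miR-503-5p, a repressor of cyclin D1 whose cluster with miR-424 is known from the involution of the mammary gland, rose by more on a lower level. It was 14.0, 21.7, 17.2 and 43.4 in the control samples. The value of 14.0 stands for 6 reads, the least that the table shows for that library. Restricted samples held 58.9 to 229 (median 102) and ad libitum samples 78.9 to 311 (median 149), so the groups did not overlap. The log2 fold change was 2.54 (standard error 0.40, adjusted p = 0.000645, limma) and passed in all settings and in all fits with 1 library left out. Of 6 tested miRNAs of the miR-424 and miR-503 cluster only miR-503-5p passed, and the median log2 fold change of the 6 was -0.09. miR-424-5p itself gave -0.29 on the log2 scale (standard error 0.17, adjusted p = 0.262, limma).

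**Figure D2:**
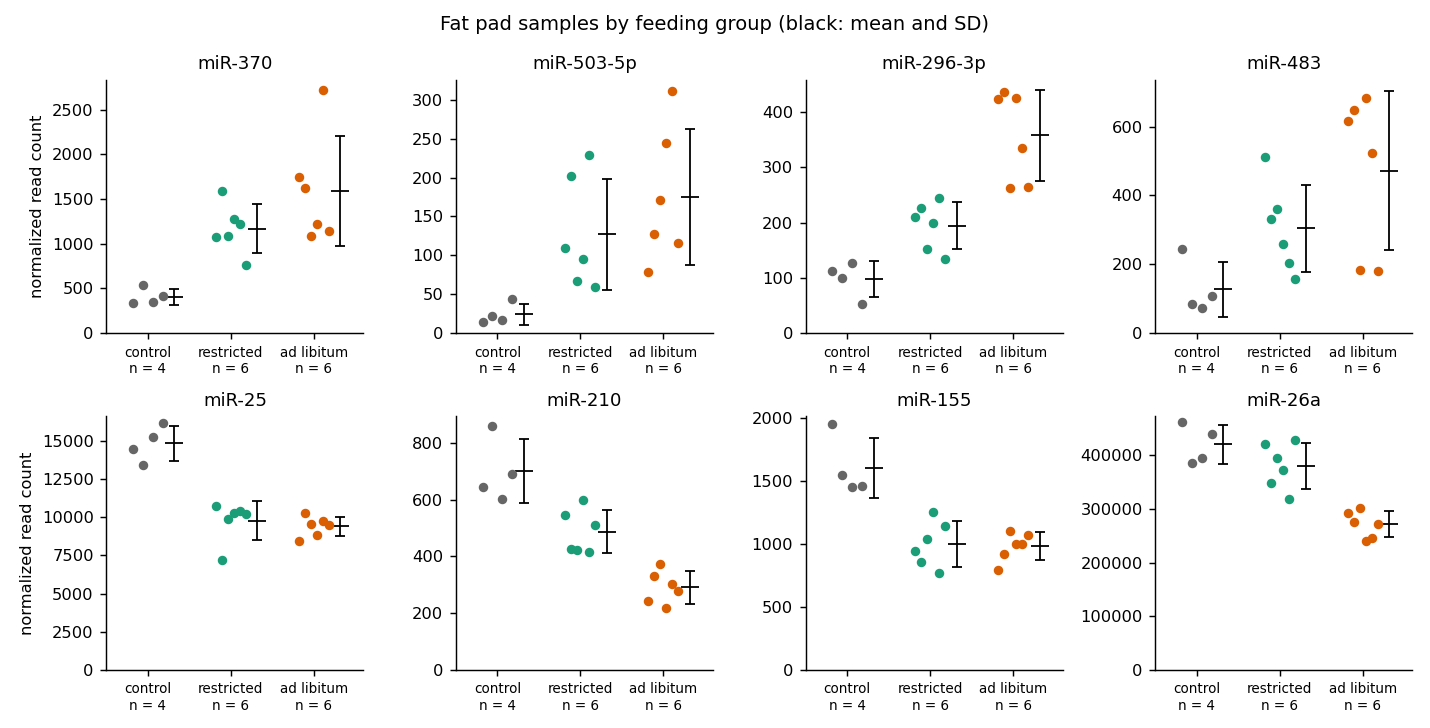
Normalized read counts of 8 miRNAs in each fat pad sample (points) by feeding group, with the group mean and SD in black and each vertical axis starting at 0. miR-370, miR-503-5p and miR-296-3p lie higher in every milk replacer sample than in any control sample, miR-25, miR-210 and miR-155 lie lower, and miR-483 and miR-26a overlap between groups.

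A pair of miRNAs from other imprinted regions was also higher. miR-296-3p, whose gene lies in the GNAS region and which is known from blood vessel growth, was 112, 100, 127 and 52.4 in the control samples. It was 134 to 245 (median 205) with restricted and 263 to 436 (median 379) with ad libitum feeding, in 3 ranges that did not overlap. The log2 fold change for milk replacer was 1.46 (standard error 0.23, adjusted p = 0.000645, limma). miR-483, which lies in an intron of the growth factor gene IGF2, was 245, 83.3, 73.8 and 108 in the control samples, 158 to 512 (median 295) with restricted feeding and 179 to 683 (median 569) with ad libitum feeding. Control replicate 2 was as high as the lower milk replacer samples. The log2 fold change was 1.58 (standard error 0.40, adjusted p = 0.0190, limma), and the call was lost without control replicate 18, 19 or 21 (adjusted p of up to 0.073, limma).

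Further members of the DLK1-DIO3 cluster that passed were miR-487a and miR-543. miR-487a was 76.9, 29.7, 40.2 and 37.9 in the control samples, 75.4 to 272 (median 122) with restricted feeding and 71.0 to 173 (median 113) with ad libitum feeding. Only control replicate 2 reached into the range of the milk replacer samples, and the log2 fold change was 1.47 (standard error 0.32, adjusted p = 0.00966, limma). miR-543 was 564, 898, 872 and 701 in the control samples, 924 to 3003 (median 1136) with restricted and 1148 to 4000 (median 2600) with ad libitum feeding. Its groups did not overlap, and its log2 fold change was 1.27 (standard error 0.30, adjusted p = 0.0146, limma). With log2 reads as a covariate, or without the 3 libraries under 3000000 reads, miR-543 no longer passed (adjusted p of up to 0.200, limma).

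Of the other miRNAs that rose, miR-204, known to favour the fat cell over the bone cell fate and hosted by TRPM3, was 989, 1017, 635 and 916 in the control samples, 1026 to 2495 (median 1562) with restricted and 849 to 1846 (median 1515) with ad libitum feeding, which gave 0.78 on the log2 scale (standard error 0.22, adjusted p = 0.0299, limma). miR-365-5p, transcribed with the brown fat miRNA miR-193b, was 42.0, 51.3, 30.7 and 45.2 against 41.7 to 167 (log2 fold change 1.01, adjusted p = 0.00966, limma). miR-484, a repressor of the mitochondrial fission factor FIS1, had a log2 fold change of 0.77 (adjusted p = 0.0177, limma). The corresponding value of miR-497, a relative of miR-15 and miR-16 that restrain the cell cycle, was 0.60 (adjusted p = 0.0274, limma), and that of miR-874, within KLHL3, was 0.90 (adjusted p = 0.0190, limma). The bovine miRNA miR-2898 had 1.33 (adjusted p = 0.00966, limma). The calls of miR-204 and miR-497 were lost without control replicate 19 or 21, and those of miR-497 and miR-874 without control replicate 18 (highest adjusted p = 0.132, limma).

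On the lower side miR-25 had the lowest adjusted p. It lies with miR-93 and miR-106b in an intron of MCM7, a gene of DNA replication. Control samples held 14480, 13440, 15299 and 16170 normalized reads, restricted samples 7186 to 10718 (median 10258) and ad libitum samples 8470 to 10300 (median 9521). No milk replacer sample reached the lowest control sample, and the fall of 0.63 on the log2 scale (standard error 0.10, adjusted p = 0.000645, limma) passed in all 14 other settings and all 16 fits with 1 library left out. Its neighbours gave log2 fold changes of -0.30 for miR-93 (adjusted p = 0.0509, limma) and -0.45 for miR-106b (adjusted p = 0.119, limma).

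miR-210, the miRNA most firmly tied to low oxygen through the factor HIF1A, fell as well. It was 644, 862, 605 and 692 in the control samples, 416 to 599 (median 469) with restricted feeding and 218 to 374 (median 290) with ad libitum feeding. The 3 ranges did not overlap, with the restricted samples between the others. The log2 fold change for milk replacer was -0.90 (standard error 0.15, adjusted p = 0.000906, limma), and like that of miR-25 it passed in all settings and all fits with 1 library left out.

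miR-155, a miRNA of activated immune cells that also represses the adipogenic factor CEBPB, was 1952, 1547, 1450 and 1460 in the control samples. It lay between 765 and 1253 in the restricted samples (median 992) and between 789 and 1101 in the ad libitum samples (median 1001), below every control sample. The fall was 0.70 on the log2 scale (standard error 0.13, adjusted p = 0.00341, limma), and it no longer passed without the 3 libraries under 3000000 reads (adjusted p = 0.0775, limma) or with all 48 samples in 1 fit (adjusted p = 0.438, limma). Of 8 immune cell miRNAs tested, miR-155 was the only one to pass (3.65% of all 301 were lower), and their summed level was 5365 to 7919 with milk replacer and 6317 to 7388 in the control samples.

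Some of the most abundant miRNAs fell as well. miR-26a, whose gene lies in an intron of the phosphatase gene CTDSP2, was 461801, 385865, 395348 and 439167 in the control samples and 240987 to 428612 with milk replacer, which gave -0.39 on the log2 scale (standard error 0.09, adjusted p = 0.0133, limma). miR-126-3p, which endothelial cells express from an intron of EGFL7, was 352186, 484660, 498844 and 594379 against 251938 to 424674 (log2 fold change -0.47, adjusted p = 0.0299, limma). Its passenger arm miR-126-5p had -0.53 (adjusted p = 0.119, limma), and the sum of the 2 endothelial miRNAs ranged from 254628 to 431282 with milk replacer and from 357955 to 602206 in the control samples. The part of endothelial content in the fall of miR-126-3p was not tested. The calls of miR-26a and miR-126-3p were both lost without the 3 libraries under 3000000 reads and with all 48 samples in 1 fit. In each of these settings the only 2 lower calls were miR-25 and miR-210. miR-143, a promoter of fat cell differentiation that is also rich in smooth muscle, had a log2 fold change of -0.54 (adjusted p = 0.0494, limma) and lost the call in 12 of 16 fits with 1 library left out, control replicates 2, 19 and 21 among them (highest adjusted p = 0.119, limma).

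Among the let-7 family, which restrains growth genes, let-7d and miR-98 fell (2 of 10, against 3.65% of all 301). let-7d was 8947, 8626, 8653 and 9497 in the control samples and 6679 to 8310 with milk replacer, and miR-98 was 4575, 4321, 4127 and 3968 against 2038 to 3691, so neither overlapped. Their log2 fold changes were -0.27 and -0.53 (adjusted p = 0.0274 and 0.0177, limma). After rescaling to equal sums neither passed, and the median of the 10 let-7 miRNAs moved from -0.20 to -0.03. Without control replicate 18, 19 or 21, or with log2 reads as a covariate, let-7d did not pass either (adjusted p of up to 0.495 over all settings, limma).

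miR-338, a miRNA of nerve and glia that lies in an intron of AATK, showed the largest fall in fold. It was 152, 62.7, 432 and 63.2 in the control samples, 9.69 to 85.9 (median 25.9) with restricted feeding and 6.01 to 117 (median 23.5) with ad libitum feeding, and the groups overlapped. The log2 fold change was -2.28 (standard error 0.65, adjusted p = 0.0299, limma), and it did not pass without control replicate 2 or 19 (adjusted p of up to 0.145, limma). miR-95 and miR-1468 had log2 fold changes of -0.61 (adjusted p = 0.0327, limma) and -0.57 (adjusted p = 0.0190, limma). Both lost the call after rescaling and without control replicate 19 or 21, and miR-95 also without control replicate 18, restricted replicate 4, 8 or 13 or ad libitum replicate 6 (adjusted p of up to 0.147 with 1 library left out, limma).

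Part of the rise concerned miRNAs at the limit of detection. Of the 22 miRNAs that passed on the higher side, 9 had a mean under 50 normalized reads, and 8 of these 9 were listed at 0 in at least 1 control sample. They were miR-2285k-1, miR-2285t, miR-2478, miR-200a, miR-200b, miR-324, miR-383, miR-129-1-5p and miR-671, of which miR-2478 had no 0. Of 5 epithelial miRNAs tested, 2 passed (7.31% higher over all 301) and all 5 had a log2 fold change above 0 (4 after rescaling), with medians of 2.64 for milk replacer, 3.37 for ad libitum and 2.12 for restricted feeding. These medians depend on the pseudocount, since miR-200a, miR-200b and miR-205 were at 0 in all control samples. These 3 reached the filter of a mean of at least 10 only through the milk replacer samples, so they could only come out above 0. The epithelial miRNAs that were not tested had means under 10. The count above 0, the calls and the medians of this list were therefore partly fixed by the filter. The median sum of the 10 epithelial miRNAs in the table was 102 normalized reads with milk replacer and 23.2 in the control samples, in ranges that overlapped, and its part in the other changes was not tested. The epithelial miRNAs miR-200a and miR-200b were at 0 in all 4 control samples. With milk replacer miR-200a ranged from 0 to 84.8 and miR-200b from 0 to 67.0, each at 0 in 2 restricted samples. In 6 of 12 milk replacer samples each was above 14.0, the value of 6 reads in the shallowest control library. Both passed (adjusted p = 0.0256 for miR-200a and 0.0238 for miR-200b, limma), and neither did without the 3 libraries under 3000000 reads or without control replicate 18, 19 or 21. None of the 11 lower calls had a mean under 50, and the test limited to means of at least 50 passed for 13 higher and 10 lower of 245 miRNAs. The part of depth in the calls at low levels was not tested beyond these values and the fit with log2 reads as a covariate, which passed for 17 higher and 11 lower.

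The feeding levels were then set against the same 4 control samples one by one. Ad libitum feeding gave 67 miRNAs past the threshold (22.3% of 301), 34 higher (11.3%) and 33 lower (11.0%), and restricted feeding gave 13 (4.32%), 7 higher (2.33%) and 6 lower (1.99%). The ranges of ad libitum and control samples were apart for 46 miRNAs (15.3%, with 7.64% higher and 7.64% lower) and those of restricted and control samples for 22 (7.31%, with 4.32% higher and 2.99% lower). Both counts rest on shared control samples. After rescaling to equal sums ad libitum feeding gave 62 higher and 15 lower, with the median of all miRNAs at 0.23 instead of -0.02, and restricted feeding 6 higher and 3 lower. The count for restricted feeding moved with single libraries: it was 28 without control replicate 2, 27 without restricted replicate 10, 5 without restricted replicate 13 or control replicate 21, 6 without restricted replicate 5, 8 without control replicate 18, and 7 without restricted replicate 4 or 8 or ad libitum replicate 6, 9 or 15. Without the 3 libraries under 3000000 reads the ad libitum count was 10 higher and 5 lower.

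miR-370, miR-503-5p, miR-487a, miR-296-3p, miR-25 and miR-155 passed at each feeding level. For miR-370 the log2 fold change was 1.90 with ad libitum (standard error 0.24, adjusted p = 8.89e-05, limma) and 1.50 with restricted feeding (standard error 0.24, adjusted p = 0.00335, limma). The values of miR-25 were -0.66 and -0.61, and those of miR-155 were -0.71 and -0.69. With restricted feeding miR-1468 (-0.77), miR-126-3p (-0.55) and let-7d (-0.30) also fell and miR-769 rose by 0.54 on the log2 scale. miR-450a-2, which shares the cluster of miR-503-5p, fell by 0.70 on the log2 scale in the restricted samples (adjusted p = 0.0488, limma), the opposite side from miR-503-5p at 2.29 (adjusted p = 0.00787, limma). The calls of miR-126-3p, miR-769, miR-450a-2 and let-7d at this level were lost in 10 or more of the 16 fits with 1 library left out, control replicates 18 and 21 among them (adjusted p of up to 0.149, limma). The restricted calls of miR-296-3p and miR-487a were lost without restricted replicate 13 or control replicate 18 or 21, that of miR-296-3p also without restricted replicate 4 or 5, and that of miR-1468 without control replicate 21 (adjusted p of up to 0.111, limma).

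**Figure D3:**
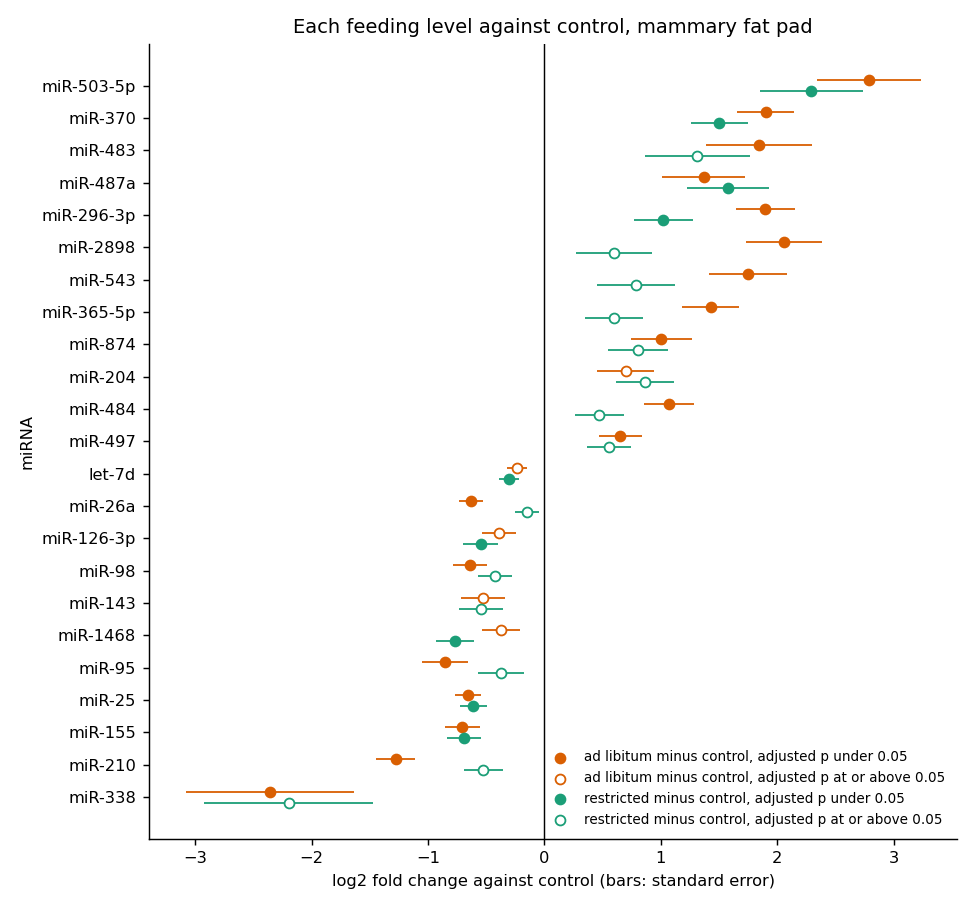
Log2 fold change against control (points) with its standard error (bars) for ad libitum (orange) and restricted (green) feeding, for the 23 miRNAs named from the comparison of milk replacer with control, filled where the adjusted p was under 0.05. Both levels share the same control samples, and the points of miR-2898, miR-210 and miR-26a lie far apart.

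Ad libitum and restricted samples were set against each other to see where the feeding levels differed. The control samples did not enter the difference itself, but they stayed in the fit and so entered its estimate of spread and its filter. This test passed for 50 of 301 miRNAs (16.6%), 29 higher with ad libitum feeding (9.63%) and 21 lower (6.98%). After rescaling it passed for 40 higher and 15 lower, and without restricted replicate 16 for 16 higher and 16 lower. Of the 23 named miRNAs, 7 differed between the feeding levels. miR-296-3p, miR-2898, miR-543, miR-365-5p and miR-484 were higher with ad libitum feeding, by 0.60 to 1.46 on the log2 scale, and miR-210 and miR-26a were lower, by -0.75 and -0.48. miR-2898 was 676, 358, 348 and 338 in the control samples, 352 to 922 (median 750) with restricted and 1056 to 2553 (median 1683) with ad libitum feeding. Only the ad libitum samples lay apart from the control samples. miR-26a was 240987 to 301033 with ad libitum feeding and 317778 to 428612 with restricted feeding, where it overlapped the control range.

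Several miRNAs moved in the ad libitum samples and stayed within or near the control range in the restricted samples. miR-130a, a repressor of the adipogenic receptor PPARG, was 291, 226, 274 and 224 in the control samples, 228 to 351 (median 286) with restricted feeding and 130 to 157 (median 139) with ad libitum feeding. Its 6 ad libitum samples lay below all others, with a log2 difference between the feeding levels of -1.02 (standard error 0.13, adjusted p = 0.000115, limma). miR-26b, from the related gene CTDSP1, was 46181, 48899, 47722 and 59252 in the control samples, 40784 to 68325 with restricted and 26704 to 38580 with ad libitum feeding. The difference was -0.68 (adjusted p = 0.00279, limma). miR-181c was 147, 82.1, 111 and 105, then 78.2 to 126 and 28.9 to 68.4 in the same order (difference -1.09, adjusted p = 0.00279, limma), and miR-2484 was 107, 60.5, 53.7 and 94.0, then 54.5 to 124 and 24.4 to 39.3 (difference -1.37, adjusted p = 0.00239, limma). For these 4 miRNAs the ad libitum range lay below both other ranges.

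On the higher side miR-6715, which lies within TECTB in the annotation, was 0, 11.4, 17.2 and 28.9 in the control samples and 8.33 to 21.8 (median 12.8) with restricted feeding. With ad libitum feeding it was 29.2 to 144 (median 106), above every other sample. The log2 difference between the feeding levels was 2.72 (standard error 0.65, adjusted p = 0.0120, limma) and passed in all settings. miR-6529a, within GSK3B, was 159, 222, 225 and 204 in the control samples, 136 to 264 with restricted and 303 to 430 with ad libitum feeding (difference 1.12, standard error 0.16, adjusted p = 0.000404, limma). miR-10172-3p, within BEGAIN next to the DLK1-DIO3 region, ran from 37.9 to 150 with restricted and from 120 to 397 with ad libitum feeding, and its control values of 93.3, 103, 178 and 179 lay between, with overlap on both sides. The difference was 1.95 (standard error 0.38, adjusted p = 0.00279, limma), while neither level passed against control (adjusted p = 0.129 and 0.147, limma).

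**Figure D4:**
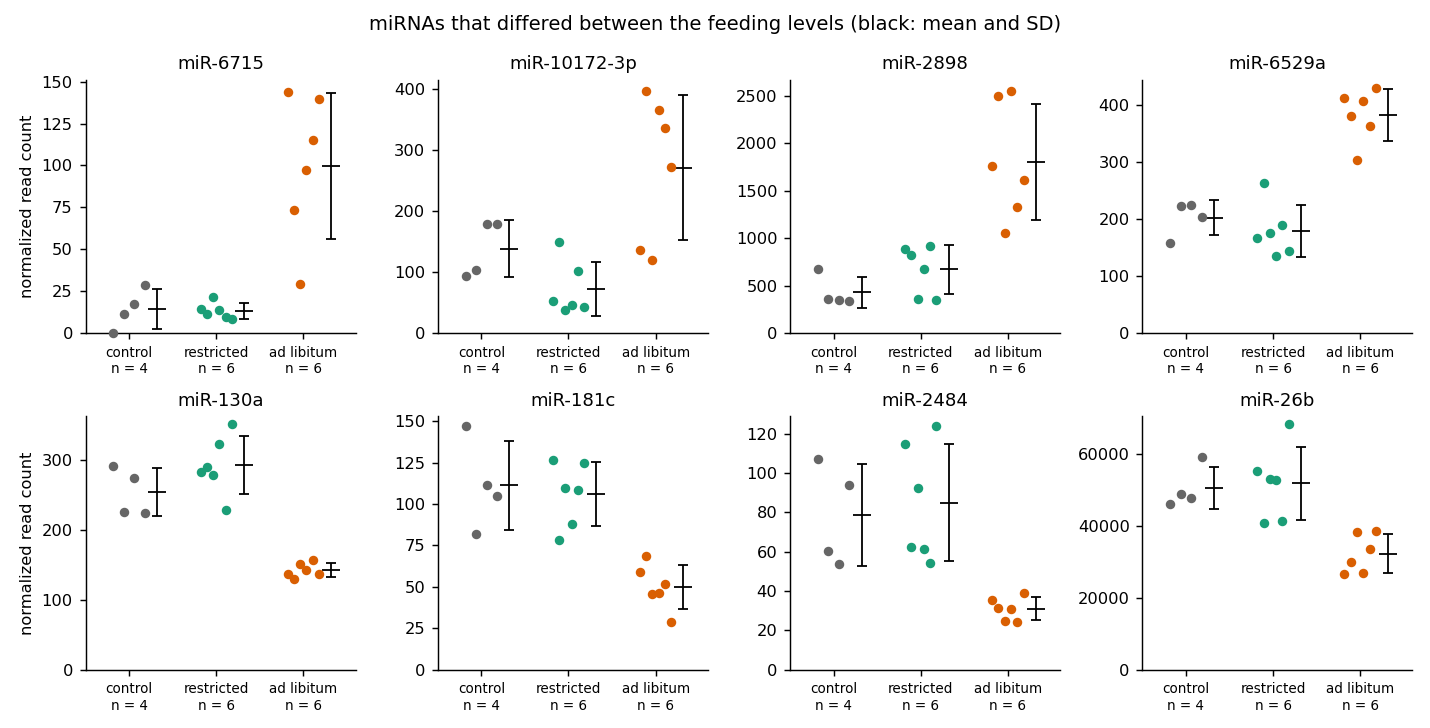
Normalized read counts of 8 miRNAs in each fat pad sample (points) by feeding group, with the group mean and SD in black and each vertical axis starting at 0. The ad libitum samples lie above both other groups for miR-6715, miR-2898 and miR-6529a and below them for miR-130a, miR-181c, miR-2484 and miR-26b.

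Of 3 striated muscle miRNAs tested, miR-1 and miR-133a fell with ad libitum feeding (11.0% of all 301 were lower there), and miR-499 did not pass (log2 fold change -0.66, adjusted p = 0.0780, limma). miR-1 was 2570, 1523, 2226 and 2183 in the control samples, 488 to 2820 with restricted and 465 to 2259 with ad libitum feeding, and miR-133a was 438, 154, 285 and 229, then 98.3 to 334 and 70.3 to 208. Against control the ad libitum samples gave a log2 fold change of -1.44 for each (adjusted p = 0.0291 for miR-1 and 0.00921 for miR-133a, limma). The summed level of the 5 striated muscle miRNAs was 1792 to 3118 in the control samples, 693 to 3277 with restricted and 591 to 2586 with ad libitum feeding. The call of miR-133a was lost without the 3 libraries under 3000000 reads (adjusted p = 0.160, limma), and that of miR-1 after rescaling and in 6 fits with 1 library left out (control replicates 2, 19 and 21 and ad libitum replicates 3, 6 and 9). The part of muscle content in these falls was not tested. miR-101-2, which represses the histone methyltransferase EZH2, was 8907, 8586, 8786 and 12162 in the control samples and 2573 to 6222 with ad libitum feeding (log2 fold change -1.26, adjusted p = 0.0154, limma), and this call was lost without control replicate 21.

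Groups of miRNAs with a known role in fat were counted next, beside a median log2 fold change of -0.01 over all 301 miRNAs. With milk replacer 7.31% of all 301 were higher and 3.65% lower, and with ad libitum feeding 11.3% and 11.0%, so that 1 call in a list of about 10 is near the share over all miRNAs. Of 11 adipocyte-linked miRNAs, miR-204 rose and miR-143 fell with milk replacer, and the median of the 11 was -0.28, or -0.10 after rescaling. Their most abundant members beside miR-143 were miR-148a, at 460661, 302562, 315026 and 299781 in the control samples and 204944 to 356991 with milk replacer, and miR-378-2, at 33093, 75761, 94233 and 107212 against 28254 to 83145. Neither passed (adjusted p = 0.212 and 0.239, limma), and reads of miR-378-2 and its numbered copy may have been split between them. miR-378-2 differed between the feeding levels, with 57025 to 83145 for ad libitum and 28254 to 64519 for restricted samples (log2 difference 0.83, adjusted p = 0.0306, limma).

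Of 8 repressors of adipogenesis none passed for milk replacer (limma, median 0.08), and with ad libitum feeding miR-130a fell. Among the 11 miRNAs linked to brown fat, miR-365-5p rose with milk replacer (1 of 11, against 7.31% of all 301). With ad libitum feeding 3 of 11 rose, against 11.3% of all 301, since miR-193b (log2 fold change 0.56, adjusted p = 0.0341, limma) and miR-328 (0.77, adjusted p = 0.0409, limma) rose as well. The other arm miR-365-3p, with a mean of 2119 normalized reads against 78.8 for miR-365-5p, did not pass in either comparison. miR-196a-2 stood for miR-196a in this list, and its numbered copy miR-196a-1 passed as lower with ad libitum feeding. In the lipid and glucose list of 8, miR-370 rose, and the list median was -0.25. None of the 9 miRNAs linked to collagen and fibrosis passed for milk replacer, although all 9 lay below 0 with a median of -0.21 (4 of 9 above 0 after rescaling). Of these, miR-29b and miR-29e had the same mean of 129.717 normalized reads, so the 9 may not be separate measurements. With ad libitum feeding miR-29a, a repressor of collagens, fell by 0.74 on the log2 scale (adjusted p = 0.0154, limma). The 12 tested members of the miR-17-92 and miR-106b-25 clusters and of the related cluster of miR-106a, miR-20b and miR-363, a family known to promote cell division, gave 1 fall with milk replacer (miR-25) and 3 with ad libitum feeding (miR-25, miR-19b and miR-106b), with medians of -0.29 and -0.49. Rescaled, these medians were both -0.12. The ruminant miR-2284 and miR-2285 families gave 2 of 10 higher with milk replacer, both among the low-level calls above, and none lower. With ad libitum feeding the same 2 (miR-2285k-1 and miR-2285t) were higher and 3 were lower (miR-2284x, miR-2284y-2 and miR-2284y-4).

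Beside the immune and endothelial miRNAs, 1 of 7 smooth muscle and stromal miRNAs fell with milk replacer (miR-143), against 3.65% of all 301. The test passed for none of 2 erythroid and none of 4 liver miRNAs (limma), with medians of -0.16 and -0.36 on the log2 scale. The erythroid sum was 2138 to 4386 with milk replacer and 2717 to 4199 in the control samples, and the liver sum 3204 to 8231 and 4696 to 6512. All of these ranges overlapped.

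The DLK1-DIO3 cluster was followed in the order of its genes, since it held miR-370, miR-487a and miR-543. Of 42 members tested, 3 rose with milk replacer and none fell, against 7.31% higher over all 301, so that the count of calls was close to the share over all miRNAs. A log2 fold change above 0 was found for 37 of the 42 and for 149 of all 301, and the median of the 42 was 0.31. With ad libitum feeding 7 rose (11.3% higher over all 301), namely miR-370, miR-543, miR-487a, miR-409b, miR-654, miR-127 and miR-485, and the median was 0.47. With restricted feeding miR-370 and miR-487a rose (2.33% higher over all 301) and the median was 0.20. After rescaling 19 members passed with ad libitum feeding and 2 with restricted feeding, all higher, against 62 and 6 higher of all 301 at that setting. Without the 3 libraries under 3000000 reads 2 members passed at each level, against 15 (ad libitum) and 14 (restricted) of all 305 miRNAs tested there. miR-409b was 2353, 2717, 2041 and 2098 in the control samples, 1860 to 5662 with restricted and 3694 to 9543 with ad libitum feeding (log2 fold change 1.37 for ad libitum against control, adjusted p = 0.00405, limma). The abundant miR-127, which is transcribed antisense to RTL1, was 31300, 30032, 19938 and 26204 in the control samples and 32460 to 68383 with ad libitum feeding (log2 fold change 0.72, adjusted p = 0.0322, limma). In both cases the ad libitum samples lay above all control samples. miR-433 differed between the feeding levels by 1.11 (adjusted p = 0.0499, limma), a call that was lost in 14 of 16 fits with 1 library left out, controls 2, 18, 19 and 21 among them. miR-376e went the other way, with 122 to 276 for ad libitum and 313 to 600 for restricted samples (difference -1.01, adjusted p = 0.00760, limma).

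**Figure D5:**
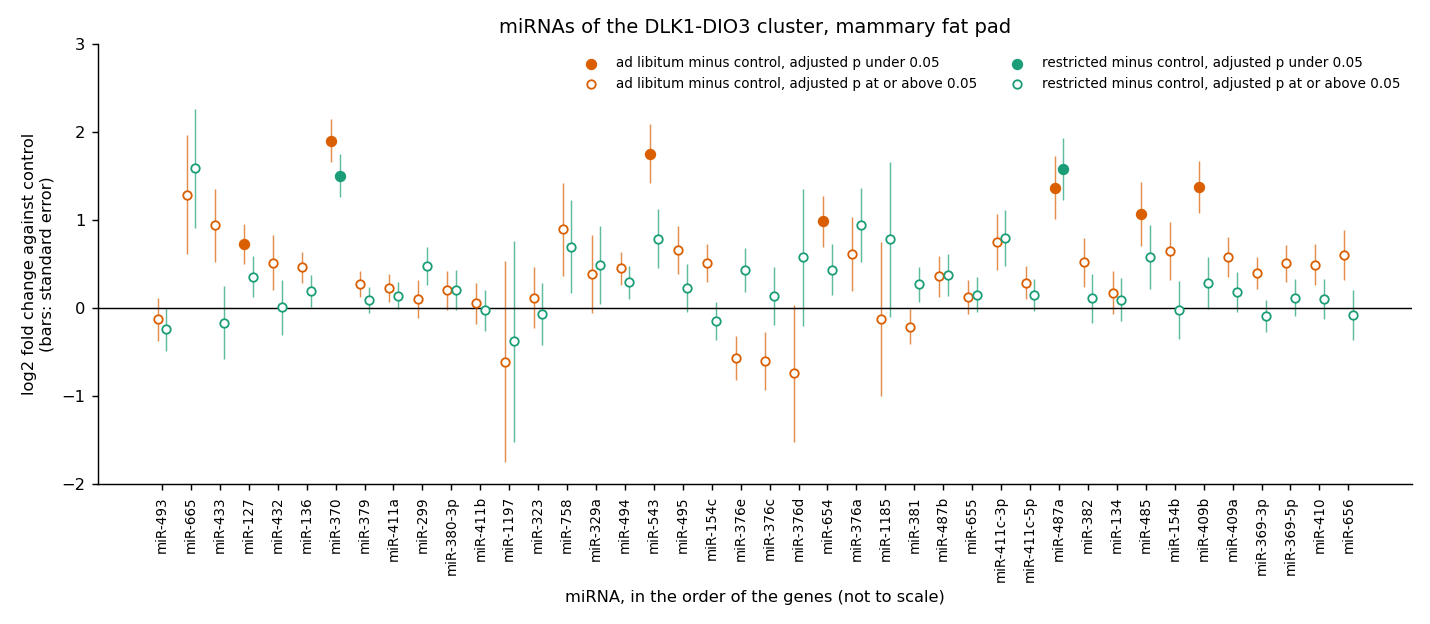
Log2 fold change against control (points) with its standard error (bars) for ad libitum (orange) and restricted (green) feeding, for the 42 tested miRNAs of the DLK1-DIO3 cluster in the order of their genes, filled where the adjusted p was under 0.05. The 7 filled ad libitum points are spread over the cluster, and most points lie above 0.

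Tests of the difference between tissues showed how far these changes were particular to the fat pad. Against the liver the effect of milk replacer differed for 32 of 325 miRNAs (9.85%), 25 higher in the fat pad (7.69%) and 7 lower (2.15%). Among the miRNAs described above, miR-503-5p rose in the fat pad by 2.54 on the log2 scale and had -0.08 in the liver (difference 2.63, standard error 0.63, adjusted p = 0.0114, limma). miR-483 had 1.58 and -0.25 (difference 1.83, adjusted p = 0.0318, limma), and miR-370 had 1.70 and 0.45 (difference 1.25, adjusted p = 0.0470, limma). On the lower side miR-210 had -0.90 in the fat pad and 0.01 in the liver (difference -0.91, adjusted p = 0.0204, limma), miR-25 had -0.63 and 0.01 (difference -0.64, adjusted p = 0.0247, limma), and miR-26a had -0.39 and 0.17 (difference -0.57, adjusted p = 0.0277, limma). The liver means of miR-25 were 13840, 13251 and 13414 in ad libitum, restricted and control samples.

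The DLK1-DIO3 cluster held 20 of the 25 higher differences, of 41 members tested. All 41 differences were above 0, with a median of 1.33 on the log2 scale, while the median change in the fat pad itself was 0.31 (42 members tested). The differences of the cluster thus rested in large part on the liver values and were not particular to the fat pad. For miR-134 and miR-376c the difference lay in a fall in the liver (-3.28 and -3.72) and not in the fat pad (0.13 and -0.24). After rescaling the difference from the liver passed for 49 higher and no lower miRNAs (limma), with the median of all miRNAs at 0.34 instead of -0.02, and miR-210, miR-25 and miR-26a did not pass (adjusted p of 0.342 to 0.571, limma). The differences of these 3 were also lost without the samples numbered 18 or 21, and that of miR-503-5p without those numbered 2 (adjusted p of up to 0.102, limma). The count was 10 without the samples numbered 21, 13 without those numbered 18, 19 without those numbered 1 or 2, and 21 without those numbered 5.

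Against the mammary parenchyma the effect differed for 113 of 336 miRNAs (33.6%), 44 higher in the fat pad (13.1%) and 69 lower (20.5%). After rescaling it was 29 higher and 87 lower, and the median moved from 0.03 to -0.13. The 3 control parenchyma samples were low in epithelial miRNAs, which moves with these differences: all 10 epithelial miRNAs tested and 37 of 48 members of the DLK1-DIO3 cluster were among the lower ones. The parenchyma means of miR-205 were 18177 and 15467 with ad libitum and restricted feeding and 25.4 in the control samples. In the fat pad miR-205 was 0 in all 4 control samples and at most 74.9 with milk replacer. A difference in feeding and a difference in the sampled tissue cannot be told apart there. miR-370 rose by 1.70 in the fat pad and had 3.42 in the parenchyma on the log2 scale (difference -1.71, adjusted p = 0.0115, limma). miR-210 fell in the fat pad and had a value of 0.04 in the parenchyma (difference -0.94, adjusted p = 0.0462, limma).

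Of the 10 most abundant miRNAs of the fat pad, 3 passed the test for milk replacer, all lower, against 11.0% of all 301 in either direction and 3.65% lower. miR-99a-5p, a repressor of mTOR and the most abundant, was 870738, 608892, 617218 and 699760 in the control samples, 657534 to 1141740 with restricted and 447241 to 722173 with ad libitum feeding. It did not pass for milk replacer (log2 fold change 0.11, adjusted p = 0.606, limma) and was lower with ad libitum than with restricted feeding (-0.59, adjusted p = 0.0163, limma). Those that passed were miR-126-3p, miR-143 and miR-26a, and miR-148a, miR-199a-1-3p, let-7i, miR-10b, let-7a-2-5p and let-7f-2 had log2 fold changes of -0.10 to -0.34 with adjusted p of 0.132 to 0.577 (limma). The share of the 10 highest entries was taken with numbered copies counted apart, so these are not all the miRNAs just named. These entries made up 59.1% ± 2.49 of the summed values with milk replacer (SD, n = 12) and 60.8% ± 1.86 in the control samples (SD, n = 4). The difference lay within the spread of the samples (two-sided exact permutation test, p = 0.215).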

How the data were processed

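Total RNA of bovine tissue was made into small RNA libraries by the study, size-selected on a gel and sequenced. Per the submitters' notes, bcl2fastq, FastQC and Trim Galore handled the reads and DESeq2 the counts. For the deposited table, the genome build and the tool that matched reads to miRNAs are not stated. The paper names several miRNA callers and a bovine genome for its own comparison of such programs. That comparison took libraries from several series, this one among them, and included cow mammary gland samples. It does not say that its callers or genome were used to make the deposited table. The deposited values are read counts per mature miRNA divided by the authors by a size factor for each library. In each library the step was set at the lowest value above 0 divided by 6. Every value was a whole multiple of that step, within a tolerance of 0.01, and summing the steps gave the estimated reads. No count model was run. A further 6 columns hold the authors' own comparison and were not used.

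The deposited values were taken to log2 (value + 1), which makes fold changes of low miRNAs smaller. A listed 0 was entered as 0 although it can stand for up to 5 reads. Where control samples were at 0, the fold change can therefore also be overstated. miRNAs with a mean of at least 10 were fitted with limma 3.58.1 (R 4.3.3, statmod 1.5.0) with a mean-variance trend over the 3 feeding groups of the fat pad, and over both tissues for the differences between tissues. Benjamini-Hochberg adjusted p under 0.05 counted as passed. Single values used exact permutation tests over samples with 1820 arrangements (scipy 1.17.1, Python 3.11.15), with a smallest two-sided p of 0.0011. The fits were tested on simulated data. In 19 groups of numbered copies, 42 names match apart from the copy number, and of each group the one with the highest mean is named. The groups were formed from the names, and their sequences were not compared. No same-group samples agreed within counting error (36 pairs, lowest chi-square per degree of freedom 74.1). Host genes are from RefSeq, matched for 299 of 301 tested miRNAs. Some host genes are not reported here.

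Named were up to 12 miRNAs in each direction for milk replacer, 6 for each feeding level and 5 for the other differences, by fold change among those that passed with a group mean of at least 50, the 10 most abundant, and the passing or most abundant members of 18 lists. miRNAs with means under 50, cluster neighbours (miR-93, miR-106b, miR-424-5p), partner arms and the copy miR-196a-1 were named after their values were seen. The members and lists were chosen with earlier results of these data known. Alternatives were the pseudocount, the filter, the scaling, the samples in the fit, sample weights and each library left out. Leaving out the 3 libraries under 3000000 reads and summing numbered copies were added after seeing the data.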

Additional observations from a re-analysis of the deposited data

Results flagged for a closer look

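Of 90 groups of samples examined, 8 held 1 value far from the others, where chance gives about 1 in 20. Control replicate 2 was highest for miR-2898 (676 normalized reads), miR-148a (460661), miR-199a-1-3p (233764) and miR-10b (177670). Restricted replicate 5 was highest for miR-543 (3003) and lowest for miR-25 (7186). For miR-338, ad libitum replicate 7 (117) and restricted replicate 10 (85.9) stood above their groups.

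The effect differed between the feeding levels, on the log2 scale as ad libitum minus restricted, for miR-296-3p (0.87), miR-2898 (1.46), miR-543 (0.97), miR-365-5p (0.83), miR-484 (0.60), miR-210 (-0.75) and miR-26a (-0.48).

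The effect of milk replacer differed between fat pad and liver, as fat pad minus liver, for miR-503-5p (2.63), miR-370 (1.25), miR-483 (1.83), miR-210 (-0.91), miR-25 (-0.64) and miR-26a (-0.57). Between fat pad and parenchyma it differed for miR-370 (-1.71), miR-487a (-2.48), miR-543 (-1.57), miR-365-5p (2.12), miR-210 (-0.94), miR-155 (1.91), miR-95 (0.97), miR-1468 (1.27), miR-143 (1.20) and miR-126-3p (1.58). All of these passed limma's test of the difference at an adjusted p under 0.05.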

How the results depend on the processing

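The calls of miR-370, miR-503-5p, miR-25 and miR-210 for milk replacer held in all settings run. Sample quality weights raised the count for milk replacer from 33 to 55, for restricted feeding from 13 to 56 and for the difference from the liver from 32 to 67, and lowered that from the parenchyma from 113 to 35. With all 48 samples in 1 fit the counts were 14 for milk replacer, 29 (from 67) for ad libitum feeding and 11 (from 50) between the feeding levels. Without the 3 libraries under 3000000 reads they were 11 for milk replacer and 15 for ad libitum feeding. A pseudocount of 10 gave 7 for restricted feeding, and rescaling gave 49 for the difference from the liver. With 1 library left out, the counts ran from 20 to 44 for milk replacer, 45 to 81 for ad libitum, 5 to 28 for restricted and 32 to 58 between feeding levels. For the differences between tissues all samples of 1 number were left out together, in both tissues. The counts then ran from 10 to 36 against the liver and from 96 to 130 against the parenchyma. In the fat pad with 1 library left out, the difference in detected miRNAs ran from 29.3 to 46.3. That in reads ran from 1.82e+06 to 2.75e+06 (lowest p = 0.0190, exact permutation test). The difference in the share of the 10 highest entries, numbered copies counted apart, ran from -2.20 to -0.86 percentage points. The single most abundant miRNA had a share 3.42 points higher with milk replacer (p = 0.116, exact permutation test). Among miRNAs that did not pass, let-7a-2-5p turned to 0.043 after rescaling, and miR-199a-1-3p to 0.080 after rescaling, 0.027 with weights and 0.056 without the 3 libraries. With 1 library left out miR-199a-1-3p ran from -0.150 to 0.048, the latter without control replicate 2. The causes were not tested. No paired analysis was possible within the fat pad because its feeding groups share no replicate number. Between tissues, deviations of same-numbered samples had r from -0.07 to 0.26 (16 pairs with the liver) and from -0.08 to 0.46 (14 with the parenchyma). Their mean r was 0.12 and 0.17, against -0.02 and -0.03 for other-numbered samples of the same feeding group. The labels do not say whether a number marks an animal, which was not tested, and the main tests between tissues treated the samples as independent. A replicate block gave 34 calls against the liver and 121 against the parenchyma. Control libraries held as few as 2426128 reads, which limits what can be said of miRNAs under about 50 normalized reads.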
